A study of Mus musculus with 2 samples.

Results

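Glutathione, thioredoxin and antioxidant genes were followed in mouse leukaemia cells that lack Jam3 and in wild-type (WT) cells of the same leukaemia model. The group held 42 of the 27370 genes named on the arrays. A gene was included when the gene name of a non-control spot was one of the 42 symbols, and all 42 were found, on 69 probes. Where a gene had several probes, its value came from the probe with the highest mean processed signal. Which genes entered was decided by name, and their signals decided only which probe stood for a gene.

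The cells were leukemia-initiating cells (LICs) from the bone marrow of female mice with acute myeloid leukaemia (AML). They carried the MLL-AF9 fusion with a YFP reporter and had been sorted on Mac-1 and c-Kit, so both genotypes share the fusion oncogene, the reporter and the sort. Jam3-null LICs were measured on 1 array and WT LICs on 1 array, and each label names 3 mice. How the RNA of these mice was combined, their age and how Jam3 was deleted are not given in the sources used here. JAM3 is a cell-surface adhesion protein of the immunoglobulin superfamily.

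As background, cells remove hydrogen peroxide and lipid peroxides with glutathione peroxidases, which spend glutathione, and with peroxiredoxins, which are recycled by thioredoxin. Glutathione reductase and thioredoxin reductase restore these carriers with NADPH, much of it from the pentose phosphate pathway. The transcription factor NRF2, encoded by Nfe2l2, switches on many of these genes through antioxidant response elements, while KEAP1 directs its degradation. In myeloid cells NADPH is also the fuel of the oxidase that makes superoxide.

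With 1 array per genotype there is no replicate check, and no p-value is given. Log2 processed signals were scaled on each array's 75th percentile, every difference is Jam3-null minus WT, and a size of at least 2-fold is used below as a description of these 2 arrays. The error attached to a difference is the SD from the scanner software's error model, which covers the measurement of a spot and not the spread between mice or leukaemias. Among the members it lay between 0.20 and 0.36 in log2, with a median of 0.20. The Jam3-null array had 55.0% of its 43379 non-control spots well above background, against 61.8% for the WT array. Jam3 itself did not pass the background criterion on either array, so it does not check the genotypes: 1 probe read 28.1 in Jam3-null LICs, against 5.09 in WT LICs, and the other read 5.40 in Jam3-null LICs, against 3.23 in WT LICs. The sorted surface genes were measured: Kit had a signal of 1237 in Jam3-null LICs, against 1244 in WT LICs, and Itgam, which encodes the alpha chain of Mac-1, had 3703 in Jam3-null LICs, against 301.8 in WT LICs.

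The cell content of the RNA was read from marker lists. Each of 16 neutrophil maturation genes was higher on the Jam3-null array by 2-fold or more (median log2 difference 4.48), with summed signals of 1040800 in Jam3-null LICs, against 178430 in WT LICs. Monocyte and macrophage markers summed to 30587 in Jam3-null LICs, against 70089 in WT LICs; of the 11 measured (13 of the 14 listed were on the array), 4 were higher and 1 lower by that size, and Mrc1 was below background on both. That lower gene, Ly86, made up most of the sums with 10141 in Jam3-null LICs, against 59304 in WT LICs, while 7 of the 11 were higher by any amount (median 0.66). Mast cell, basophil and eosinophil markers summed to 6419 in Jam3-null LICs, against 34798 in WT LICs; 6 of the 7 measured were at least 2-fold lower, and Ms4a2 and Il5ra were below background on both. Erythroid markers summed to 1951 in Jam3-null LICs, against 705.5 in WT LICs, with 4 measured of 9, 2 of them higher, and Ermap below background on both arrays. Megakaryocyte markers (3 measured of 7, 2 of them higher, and 3 others detected on the WT array only) summed to 1013 in Jam3-null LICs, against 489.3 in WT LICs. B cell markers (3 measured of 7, 1 of them lower, Cd79a and Pax5 below background on both) summed to 7953 in Jam3-null LICs, against 13428 in WT LICs. Cd79b alone gave 7761 of the sum in Jam3-null LICs, against 11222.5 in WT LICs, and 2 markers were detected on the WT array only. T and NK cell markers (5 measured of 8, 1 higher and 1 lower, Cd8a below background on both) summed to 15496 in Jam3-null LICs, against 4835 in WT LICs. Nkg7 alone gave 15160 of the sum in Jam3-null LICs, against 4526 in WT LICs, and 4 of the 5 measured were lower by any amount. Ly86, Nkg7, Cd79b, the globin genes, Klf1 and Slc4a1 were singled out after their values were seen. The part of these marker differences in the antioxidant values below was not tested. In sorted bulk RNA, fewer cells of a type and less RNA per cell cannot be told apart.

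Of the 42 genes, 39 were well above background on both arrays (52.4% of all 27370 genes were), 1 (Gsta4) on the WT array only (8.98% of all), 0 on the Jam3-null array only (1.86% of all) and 2 (Gpx7 and Gstt1) on neither. Large differences went both ways: Mgst2, Mgst1, Gpx3, Nfe2l2, Prdx5 and G6pdx were higher on the Jam3-null array by 2-fold or more, and Prdx2, Prdx1, Gstm5 and Gstt2 lower by as much. The 6 higher genes were 15.4% of the 39, beside 10.3% of all 14351 genes measured on both arrays, and the 4 lower genes were 10.3%, beside 8.63% of all; taken in either direction they were 25.6%, beside 18.9%. At 1.5-fold 9 members (23.1%) were higher and 7 (17.9%) lower, beside 18.5% and 20.3% of all genes. At 3-fold 5 members (12.8%) were higher and 0 lower, beside 4.96% and 2.94%, or 7.90% in either direction. Among the 39, 15 had a positive difference and 24 (61.5%) a negative one, beside 55.2% negative over all genes, with a median of -0.18 (quartiles -0.52 and 0.41), beside a median of -0.07 (quartiles -0.49 and 0.39) over all genes. The shares of higher members were above those of all genes at each size, and the shares of lower members lay on either side. These sizes are nested, so they count the same genes again. The counts are small, and the members were chosen with earlier results of these data known. No enrichment is read from them. The members nearest the 2-fold size, Gstt2 at -1.11 just past it and Prdx3 at -0.85 and Pgd at 0.82 short of it, differ from it by less than the error-model SD of 0.20.

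**Figure D1:**
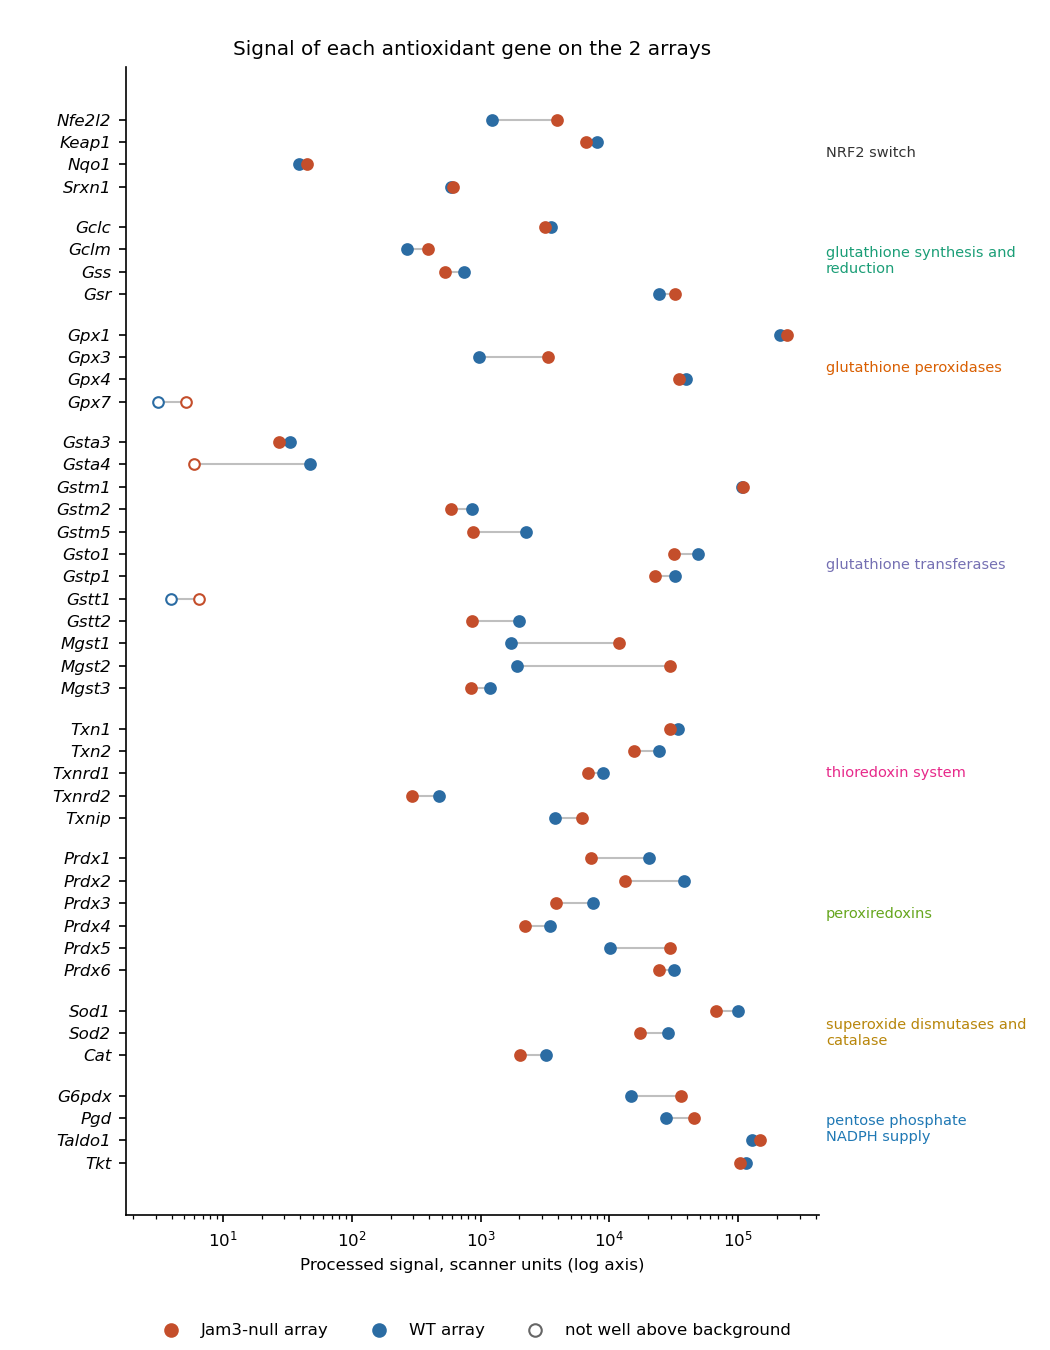
Processed signal (scanner units, log axis) of each of the 42 antioxidant genes on the Jam3-null array (orange) and the WT array (blue), joined by a line and grouped by role; open circles were not well above background. The widest gaps among filled pairs are at Mgst2 (29469 in Jam3-null LICs, against 1910 in WT LICs) and Mgst1 (11957 in Jam3-null LICs, against 1712 in WT LICs), and signals of different genes come from different probes and are not comparable.

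**Figure D2:**
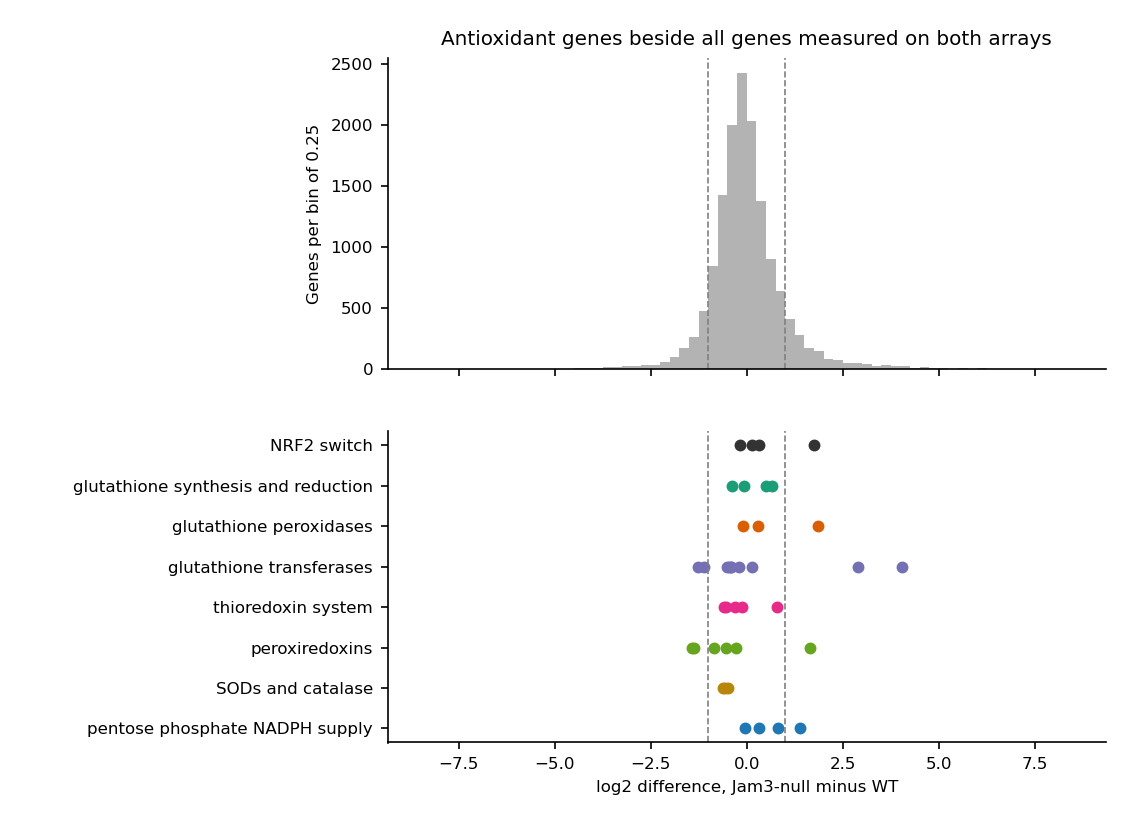
Distribution of log2 differences (Jam3-null minus WT) of the 14351 genes measured on both arrays, in bins of 0.25 (top), and the differences of the 39 measured antioxidant genes by role (bottom), 1 point per gene; dashed lines mark 2-fold. Most antioxidant genes lie within the bulk of all genes, and Mgst2 (4.04) and Mgst1 (2.90) lie in its right tail.

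NRF2 recognises the antioxidant response element, whose core TGACNNNGC (reverse complement GCNNNGTCA) was searched on both strands of RefSeq promoter windows of 300 bases, 250 before and 50 after each transcript start (GRCm38.p6). Of 42 members, 37 had a window, and 11 of these (29.7%) held the core, beside 3781 of 27025 genes (14.0%) with windows of the same length and 15 of 65 (23.1%) of the wider pathway list described below. Genes with more start sites have more windows, and by window the shares were 24.4% of 45 for the members and 12.4% of 32851 for all genes. Such a match is a description of letters and not a bound site. The members with a match were Nfe2l2, Gclm, Gsta3, Gstm5, Mgst1, Txnrd1, Srxn1, Prdx1, Sod1, G6pdx and Pgd. Their differences went both ways: 6 were positive and 5 negative with a median of 0.15, 3 were past 2-fold upward and 2 downward. Of the 24 measured members whose windows held no match, 8 were positive and 16 negative with a median of -0.29, 3 were past 2-fold upward and 1 downward. The promoters below are the 250 bases before the start of the 5 members at least 2-fold apart that hold a match, and of Mgst2, the member with the largest difference, which holds none. They are written 5′ to 3′ on the gene's strand, with the core in capitals, and lie at chr2:75704664-75704913 (minus strand, Nfe2l2), chr6:138140277-138140526 (plus, Mgst1), chrX:74428881-74429130 (minus, G6pdx), chr4:116685349-116685598 (plus, Prdx1), chr3:107895604-107895853 (plus, Gstm5) and chr3:51660929-51661178 (plus, Mgst2). Capitals that begin with GC are the core read on the opposite strand.
Nfe2l2: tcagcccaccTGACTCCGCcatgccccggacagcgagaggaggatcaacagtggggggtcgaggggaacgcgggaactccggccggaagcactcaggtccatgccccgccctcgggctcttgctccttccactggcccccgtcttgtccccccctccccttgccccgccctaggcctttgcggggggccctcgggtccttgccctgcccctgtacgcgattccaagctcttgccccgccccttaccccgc
Mgst1: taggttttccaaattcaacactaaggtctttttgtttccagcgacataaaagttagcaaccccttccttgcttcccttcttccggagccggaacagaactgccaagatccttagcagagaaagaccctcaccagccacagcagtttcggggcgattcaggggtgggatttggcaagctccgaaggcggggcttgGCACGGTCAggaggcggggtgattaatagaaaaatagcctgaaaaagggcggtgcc
G6pdx: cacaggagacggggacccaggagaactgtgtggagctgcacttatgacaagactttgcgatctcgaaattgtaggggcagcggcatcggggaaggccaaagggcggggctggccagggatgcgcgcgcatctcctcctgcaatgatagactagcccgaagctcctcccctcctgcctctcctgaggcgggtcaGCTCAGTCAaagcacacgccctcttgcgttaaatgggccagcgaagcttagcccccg
Prdx1: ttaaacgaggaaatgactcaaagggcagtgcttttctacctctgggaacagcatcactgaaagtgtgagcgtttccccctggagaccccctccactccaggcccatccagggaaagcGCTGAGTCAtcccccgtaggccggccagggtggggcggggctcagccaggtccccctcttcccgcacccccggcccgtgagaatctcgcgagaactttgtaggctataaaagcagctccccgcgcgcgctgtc
Gstm5: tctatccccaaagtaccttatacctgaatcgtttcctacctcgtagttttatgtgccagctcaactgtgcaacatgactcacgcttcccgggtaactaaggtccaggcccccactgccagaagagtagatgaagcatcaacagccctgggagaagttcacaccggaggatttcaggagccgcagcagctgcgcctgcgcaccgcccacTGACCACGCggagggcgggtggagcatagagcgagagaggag
Mgst2: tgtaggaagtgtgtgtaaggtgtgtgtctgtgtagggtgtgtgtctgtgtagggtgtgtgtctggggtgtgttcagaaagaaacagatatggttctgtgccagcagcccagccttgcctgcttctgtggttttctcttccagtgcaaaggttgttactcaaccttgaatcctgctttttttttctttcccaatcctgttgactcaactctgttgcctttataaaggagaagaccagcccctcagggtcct
Counted from the transcript start, the cores begin at base -240 in Nfe2l2, -133 in Prdx1, -57 in G6pdx, -56 in Mgst1 and -42 in Gstm5. Of these 5 genes, Nfe2l2, Mgst1 and G6pdx were higher and Prdx1 and Gstm5 lower on the Jam3-null array.

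The NRF2 switch was represented by 4 genes, of which 1, Nfe2l2, was at least 2-fold apart. Its probe at chr2:75513771-75513830 (mm9, minus strand) had 3919 in Jam3-null LICs, against 1234 in WT LICs, 3.39-fold higher (log2 difference 1.76 ± 0.20, error-model SD). All 3 Nfe2l2 probes were higher on the Jam3-null array, by 1.76, 1.66 and 0.67. The other genes of the switch differed by less. Keap1, the adaptor that marks NRF2 for degradation, had 6612 in Jam3-null LICs, against 8016 in WT LICs (-0.18 ± 0.20). Nqo1, a quinone reductase often used as a read-out of NRF2, was dim on both arrays at 45.0 in Jam3-null LICs, against 38.7 in WT LICs (0.31 ± 0.36). Srxn1, sulfiredoxin, which repairs over-oxidised peroxiredoxins, had 605.6 in Jam3-null LICs, against 585.1 in WT LICs (0.15 ± 0.20), a second probe differed by 0.92, and the third was well above background on the WT array only, with 24.3 in Jam3-null LICs, against 33.0 in WT LICs. Thus the transcript of the factor was higher, while the differences of Keap1 and Nqo1 were within the error-model SD.

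Glutathione synthesis and reduction held no gene at least 2-fold apart. Gclc, the catalytic subunit of the ligase that makes the first and limiting step of glutathione synthesis, had 3135 in Jam3-null LICs, against 3502 in WT LICs (-0.06). Gclm, its modifier subunit, had 392.7 in Jam3-null LICs, against 266.0 in WT LICs (0.66), and a dimmer probe of the gene differed by 1.05. Gss, glutathione synthetase, which completes the molecule, had 530.0 in Jam3-null LICs, against 745.3 in WT LICs (-0.40). The subunits of the ligase thus differed unequally, with Gclm higher and Gclc within the error-model SD. Gsr, glutathione reductase, had 32251 in Jam3-null LICs, against 24211 in WT LICs (0.51), and its 3 probes lay between 0.46 and 0.55.

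Among the glutathione peroxidases, Gpx3, the secreted enzyme of plasma, stood out. Its probe at chr11:54723436-54723495 (mm9, plus strand) had 3317 in Jam3-null LICs, against 972.5 in WT LICs, 3.65-fold higher (1.87 ± 0.20). Gpx1, the abundant cytosolic enzyme, had 240786 in Jam3-null LICs, against 210613 in WT LICs (0.29). Gpx4, which reduces lipid peroxides in membranes and guards against ferroptosis, had 34573 in Jam3-null LICs, against 39234 in WT LICs (-0.09). Gpx7, an enzyme of the endoplasmic reticulum, did not pass the background criterion on either array (5.16 in Jam3-null LICs, against 3.11 in WT LICs). GPX1, GPX3 and GPX4 are selenoproteins, as are the thioredoxin reductases, and the 5 selenoprotein genes went both ways (2 positive, 3 negative, median -0.09, with Gpx4 at 0.11 after cyclic loess scaling).

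The glutathione transferases held both the highest differences of the whole group and a lower-lying majority. Mgst2, a membrane enzyme that joins glutathione to leukotriene A4 to make leukotriene C4, was read at chr3:51486449-51486508 (mm9, plus strand). It had 29469 in Jam3-null LICs, against 1910 in WT LICs, 16.5-fold higher (4.04 ± 0.20), rank 87 from the top among 14351 genes. Mgst1, a microsomal transferase that also reduces lipid peroxides, had 11957 in Jam3-null LICs, against 1712 in WT LICs at chr6:138104944-138105003 (mm9, plus strand). This was 7.47-fold higher (2.90 ± 0.20, rank 240), and its other probe gave nearly the same difference, 2.73. The related membrane gene Mgst3 had 843.8 in Jam3-null LICs, against 1190 in WT LICs (-0.40, the other probe -0.12), so the 3 microsomal genes differed in sign.

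Of the soluble transferases, Gstm5 and Gstt2 were lower on the Jam3-null array by more than 2-fold. Gstm5, of the mu class, had 873.1 in Jam3-null LICs, against 2266 in WT LICs at chr3:107701101-107701160 (mm9, plus strand), 2.43-fold lower (-1.28 ± 0.20). Gstt2, of the theta class, had 854.2 in Jam3-null LICs, against 1976 in WT LICs at chr10:75295206-75295265 (mm9, minus strand), 2.16-fold lower (-1.11 ± 0.20). The other soluble enzymes were closer. Gsto1, of the omega class, had 31718 in Jam3-null LICs, against 48483 in WT LICs (-0.52). Gstp1, the pi-class enzyme, had 22574 in Jam3-null LICs, against 32042 in WT LICs (-0.41; the other probe -0.55). Gstm2, of the mu class, had 587.1 in Jam3-null LICs, against 860.5 in WT LICs (-0.46). These 3 genes were all lower, by less than 2-fold. Gstm1, also of the mu class, had 109009 in Jam3-null LICs, against 106594 in WT LICs (0.13), and its other probe differed by -0.12. Gsta3, of the alpha class, was dim at 27.0 in Jam3-null LICs, against 33.3 in WT LICs (-0.20 ± 0.36). The remaining 2 transferases were not measured on both arrays. Gsta4, an alpha-class enzyme that conjugates the lipid aldehyde hydroxynonenal, was well above background on the WT array only: 5.94 in Jam3-null LICs, against 47.4 in WT LICs, at least 1.68-fold lower. Gstt1 did not pass the background criterion on either array (6.47 in Jam3-null LICs, against 3.94 in WT LICs). In all, 3 of the 10 measured transferases had a positive difference and 7 a negative one (median -0.40), with Gsta3 at 0.01 after normexp background correction. Transferases of the mu, alpha and pi classes have close paralogs, and how far their probes cross-hybridise is not known here.

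**Figure D3:**
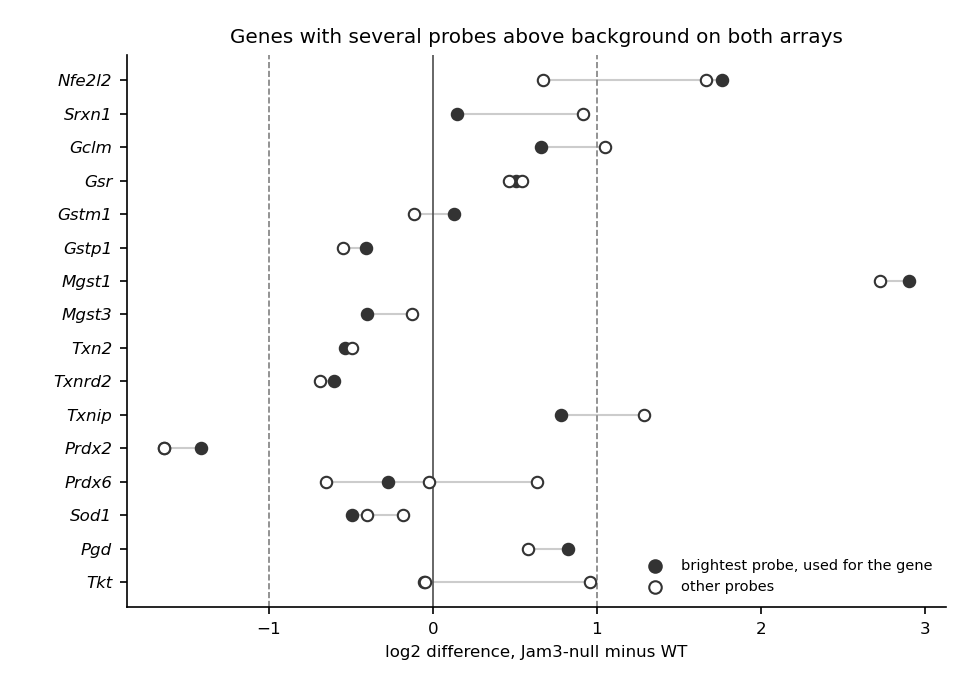
Log2 difference (Jam3-null minus WT) of every probe well above background on both arrays, for the members with several such probes; filled points are the probe used for the gene. The probes share their sign in 13 of the 16 members, and Gstm1, Prdx6 and Tkt have probes of both signs.

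The thioredoxin system held no gene at least 2-fold apart, and its carriers and reductases all had negative differences. Of these, Txn1 kept its sign in only 9 of 12 alternatives. The 9 include the other filters, naming by accession and the mean of its 1 probe, which left its value unchanged. It turned positive with cyclic loess (0.08) and quantile (0.07) scaling and in the authors' deposited table (0.02). Txn1, the cytosolic thioredoxin, had 29430 in Jam3-null LICs, against 34032 in WT LICs (-0.11). Its mitochondrial counterpart Txn2 had 15571 in Jam3-null LICs, against 24096 in WT LICs (-0.53, the other probe -0.49). Txnrd1, the cytosolic reductase, had 6764 in Jam3-null LICs, against 8869 in WT LICs (-0.29). The mitochondrial pair was thus further from 0 than the cytosolic pair. Txnrd2, the mitochondrial reductase, had 293.9 in Jam3-null LICs, against 477.0 in WT LICs (-0.60, the other probe -0.69). Txnip, which binds and inhibits thioredoxin and limits glucose uptake, went the other way, with 6098 in Jam3-null LICs, against 3792 in WT LICs (0.78, the other probe 1.29), and it passed 2-fold when its probes were averaged (1.03).

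The peroxiredoxins are peroxidases that take their electrons mostly from thioredoxin. By the probe used for each gene, 5 had a negative difference and 1 a positive one, and Prdx6, among the 5, had probes of both signs. Prdx2, a cytosolic peroxiredoxin abundant in blood cells, was read by 10 repeat spots at chr8:87498063-87498122 (mm9, plus strand). They lay between 12565 and 13642 on the Jam3-null array and between 35171 and 39171 on the WT array, and averaged 13177 in Jam3-null LICs, against 37564 in WT LICs. Repeat spots of 1 probe on 1 array per genotype show the precision of the measurement and not the spread between mice. The Prdx2 mean was 2.67-fold lower in Jam3-null LICs (-1.41 ± 0.20), with -1.64 for both other probes. Prdx1, the other main cytosolic form, had 7239 in Jam3-null LICs, against 20201 in WT LICs at chr4:116365578-116366348 (mm9, plus strand), 2.61-fold lower (-1.38 ± 0.20). Prdx3, of mitochondria, had 3845 in Jam3-null LICs, against 7425 in WT LICs (-0.85). Prdx4, of the endoplasmic reticulum, had 2227 in Jam3-null LICs, against 3480 in WT LICs (-0.55). These 4 genes were lower, those of the cytosol most. Prdx6, which uses glutathione in place of thioredoxin and also has phospholipase activity, had 24402 in Jam3-null LICs, against 31554 in WT LICs (-0.27). Its 3 other probes gave -0.65, 0.64 and -0.02, so no direction is given for Prdx6. Prdx5, found in mitochondria, peroxisomes and cytosol, was the exception. It had 29553 in Jam3-null LICs, against 10152 in WT LICs at chr19:6981601-6982035 (mm9, minus strand), 3.11-fold higher (1.64 ± 0.20).

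Superoxide dismutases, which turn superoxide into hydrogen peroxide, and catalase, which breaks hydrogen peroxide down in peroxisomes, were all lower by less than 2-fold. Sod1, the cytosolic copper and zinc enzyme, had 66531 in Jam3-null LICs, against 99941 in WT LICs (-0.49, the other probes -0.18 and -0.40). Sod2, the mitochondrial manganese enzyme, had 17238 in Jam3-null LICs, against 28267 in WT LICs (-0.62). Cat, catalase, had 2034 in Jam3-null LICs, against 3230 in WT LICs (-0.57). The 3 differences lay close together and each exceeded its error-model SD, although cyclic loess scaling brought Sod1 to -0.27. Across roles, the 4 mitochondrial members Txn2, Txnrd2, Prdx3 and Sod2 were all lower (median -0.61), a grouping made after their values were seen. It leaves out any member only partly in mitochondria, such as Prdx5, which was higher (1.64).

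**Figure D4:**
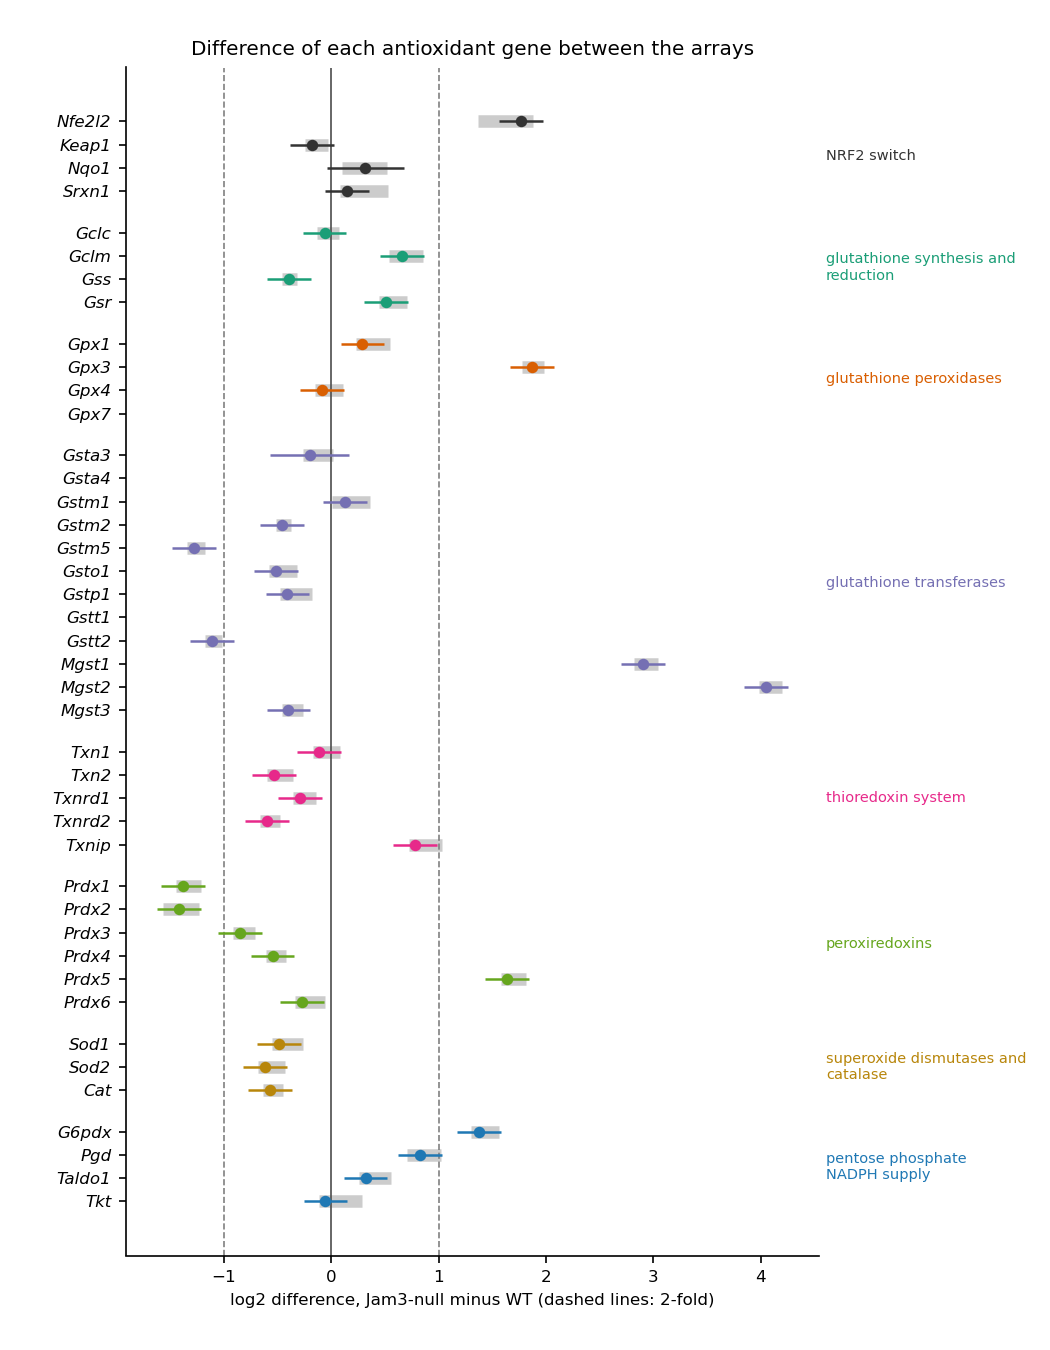
Log2 difference (Jam3-null minus WT) of each measured antioxidant gene, by role; the thin bar is ± 1 error-model SD, the grey band is the range over alternative processing, and dashed lines mark 2-fold. The 6 genes right of 2-fold and the 4 genes left of it stay past the same line over the whole of their grey bands, and Gpx7, Gsta4 and Gstt1 have no point.

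The pentose phosphate genes, which supply NADPH, were led by G6pdx, the first and rate-setting enzyme of the oxidative branch. Its probe at chrX:71654949-71655008 (mm9, minus strand) had 35965 in Jam3-null LICs, against 14804 in WT LICs, 2.60-fold higher (1.38 ± 0.20). Pgd, the later NADPH-making enzyme of the same branch, had 45535 in Jam3-null LICs, against 27485 in WT LICs (0.82, the other probe 0.58), and it just passed 2-fold with quantile and cyclic loess (1.02) scaling. Both NADPH-making steps of the oxidative branch were therefore higher on the Jam3-null array. In the non-oxidative branch, Taldo1, transaldolase, had 148182 in Jam3-null LICs, against 127067 in WT LICs (0.32). Tkt, transketolase, had 103611 in Jam3-null LICs, against 115073 in WT LICs (-0.06), and its other probes gave -0.05 and 0.96.

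A wider list of 77 genes of the same pathways, none of them members, showed differences in both directions. Of its 66 measured genes, 4 (6.06%) were higher by 2-fold or more and 6 (9.09%) lower by as much, beside 10.3% and 8.63% of all genes, and 33 had each sign (median 0.01). With cyclic loess scaling, which moves the median of all genes by 0.13, the counts were 5 higher and 4 lower, and 40 positive and 26 negative. Over all genes 12.2% were then higher and 6.88% lower. Of the 9 measured partners and regulators of NRF2, 0 were at least 2-fold apart, beside 18.9% of all genes. The other NRF2 target genes held 2 of 11 (18.2%) at least 2-fold higher and 0 lower, beside 10.3% and 8.63% of all genes. Osgin1, an oxidative-stress-induced growth inhibitor, had 4600 in Jam3-null LICs, against 213.3 in WT LICs (4.53, or 23.1-fold higher), and both its probes were higher. Hmox1, haem oxygenase, had 1098 in Jam3-null LICs, against 417.1 in WT LICs (1.49). These were the targets that stood out.

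Among other thioredoxin-fold proteins and methionine sulfoxide reductases, 1 of 11 (9.09%) was at least 2-fold higher and 1 (9.09%) lower. Over all genes the shares were 10.3% and 8.63%. Msrb1, a selenoprotein that reduces oxidised methionine, had 129401 in Jam3-null LICs, against 51186 in WT LICs (1.43). The lower gene, outside the naming rule, was Txnrd3 at -1.01, and this list held 0 lower genes with normexp, quantile, cyclic loess or the authors' deposited table. Among other glutathione enzymes, 2 of 13 (15.4%) were at least 2-fold lower and 0 higher, beside 8.63% and 10.3% of all genes. Gstm7, a mu-class transferase, had 57.6 in Jam3-null LICs, against 225.6 in WT LICs (-1.87, or -1.19 after normexp background correction). Glo1, which uses glutathione to clear methylglyoxal, had 4550 in Jam3-null LICs, against 14745 in WT LICs (-1.60). Both of its probes were lower.

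Of 10 other NADPH suppliers, 1 (10%) was at least 2-fold higher and 3 (30%) lower, beside 10.3% and 8.63% of all genes. Pgls, the lactonase that acts between G6pdx and Pgd in the oxidative pentose phosphate branch, had 15074 in Jam3-null LICs, against 46659 in WT LICs (-1.53), opposite in sign to its neighbours. Mitochondrial Idh2 had 1562 in Jam3-null LICs, against 4703 in WT LICs (-1.49). Nnt, the transhydrogenase of the inner mitochondrial membrane, had 7794 in Jam3-null LICs, against 17554 in WT LICs (-1.08), and its 3 probes were all lower. It stayed under 2-fold with quantile (-0.96), cyclic loess (-0.91) and the authors' deposited table (-0.94). Cytosolic Idh1 had 513.9 in Jam3-null LICs, against 248.5 in WT LICs (1.14, or 0.97 after normexp). None of the 6 measured genes of cystine uptake and glutathione breakdown, and none of the 6 other antioxidant enzymes, was at least 2-fold apart. Over all genes the share was 18.9%. The cystine and glutathione breakdown list holds 10 genes, and its genes detected in 1 genotype only are outside the 6. With genes at their bound, 2 of 9 in that list were at least 2-fold higher and 0 lower. The higher genes were Chac1 and Ggt5, whose signals are given under the other observations. Glutathione breakdown is therefore not read as unchanged.

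**Figure D5:**
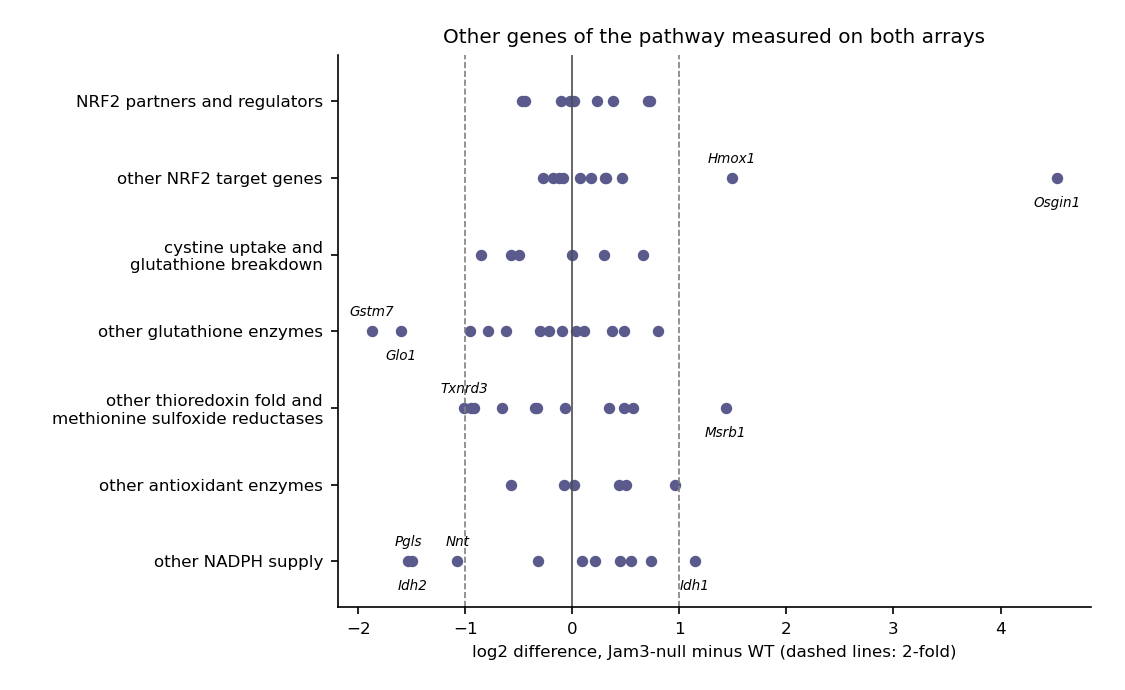
Log2 difference (Jam3-null minus WT) of the 66 measured genes of the wider pathway list, by sublist, 1 point per gene; dashed lines mark 2-fold and genes past it are named. Osgin1 (4.53) lies far to the right, and Gstm7 (-1.87), Glo1 (-1.60) and Pgls (-1.53) are the farthest left.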

How the data were processed

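Spot intensities of 2 Cy3 arrays, on a linear scale and not normalized between arrays, were deposited by the authors. Per the file headers the scanner software was Agilent Feature Extraction 10.7.3.1 (10.7, per the submitters' processing notes), its processed intensity is background-subtracted and detrended within the array, and coordinates are on mm9. The deposited value table holds log2 values (median 5.66 in both columns, r over probes 0.999 with the scanner values; its normalization is not stated in the labels) and served as an alternative.

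Spots marked as outliers were left out (151 on the Jam3-null array, 163 on the WT array; 0 saturated), the spots of a probe were averaged, and log2 signals were scaled to each array's 75th percentile (667.8 on the Jam3-null array, 713.9 on the WT array) with no pseudocount. A gene was measured when most unmarked spots of its probe were well above background on both arrays. A gene well above background on 1 array has only a bound, taken against its own signal on the dim array or the dimmest detected signal there, whichever is higher. Where its own signal is the higher, the bound equals the plain difference. Per the file headers, both genotypes shared 1 slide and 1 scan. Of 69 member probes, 59 had an accession with the same symbol in a RefSeq table (GRCm38.p6), 0 another symbol, and 10 were not listed; promoters are from RefSeq.

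Every member is named. Pathway genes are named when at least 2-fold apart, at most the 5 largest in each direction. The members, roles, pathway and marker lists were chosen with earlier results of these data known. A listed marker gene is not reported here. No test across samples was possible. The number of arrays limits the precision, and 127 probes in repeat spots had a median SD of the log2 difference of 0.09. The steps from probes to genes were tested on simulated data. Alternatives were normexp background correction (offset 50), quantile, cyclic loess, median and spike-in scaling, the deposited table, other filters, genes at their bound, outlier spots kept, the mean of a gene's probes, naming by accession, and thresholds of 1.5-fold and 3-fold. Python 3.11.15 with numpy 2.4.6, pandas 2.3.3 and matplotlib 3.10.9 and R 4.3.3 with limma 3.58.1 were used.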

Additional observations from a re-analysis of the deposited data

How the results depend on the processing

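The 6 higher and 4 lower members stayed at least 2-fold apart under each of the 12 alternatives that keep the threshold. Not all of these could move them. The other filters, genes at their bound, outlier spots kept and naming by accession left their values unchanged. The mean of the probes did the same for genes with 1 probe, so the other scalings, normexp and the deposited table carry the comparison. A further member, Pgd or Txnip, made 7 higher with quantile, cyclic loess and the mean of the probes, and 5 were lower with no filter. The median of the members lay between -0.24 and -0.03 and that of the pathway list between -0.06 and 0.17. At 1.5-fold, 7 members were lower. Of 66 pathway genes, 10 were higher and 13 lower at that size, beside 18.5% and 20.3% of all genes. At 3-fold, 0 members were lower, and 1 of 66 pathway genes was higher and 2 were lower, beside 4.96% and 2.94% of all genes. With no filter on dim probes, 7 pathway genes were higher and 10 lower, since 77 genes then entered. With the stricter filter, which left 50 pathway genes, 2 were higher, beside 7.26% of all genes. Small differences turned in sign with cyclic loess for Gclc (0.07), Gpx4 (0.11), Txn1 (0.08) and Tkt (0.18), among other alternatives, and with normexp for Gsta3 (0.01). The mean of the probes gave 1.37 for Nfe2l2. Normexp gave 4.15 for Osgin1 and -1.19 for Gstm7, and a bound of 1.21-fold for Gsta4. No paired analysis was possible because each genotype had 1 array. Dim genes such as Nqo1 and Gsta3 have the widest error (SD 0.36), and genes below background have no fold.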

Other observations

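In the pathway list, 4 genes were well above background on 1 array only. They lie outside the naming rule and were chosen after their values were seen. Chac1, which degrades glutathione in the cytosol, had 657.1 in Jam3-null LICs, against 17.4 in WT LICs, 40.4-fold higher (log2 5.34 ± 0.43, error-model SD). Its WT signal was not well above background but lay above the dimmest detected signal there. This fold is therefore the plain difference and not a lower limit, and it was 8.02-fold after normexp background correction. Ggt5, a gamma-glutamyl transferase that acts on extracellular glutathione and leukotriene C4, had 253.0 in Jam3-null LICs, against 13.4 in WT LICs, at least 17.5-fold higher (at least 4.31-fold after normexp). Slc7a11, the cystine transporter subunit that feeds glutathione synthesis, had 9.03 in Jam3-null LICs, against 35.3 in WT LICs, at least 1.28-fold lower (1.02-fold after normexp). Bach2, a repressor related to the NRF2 antagonist BACH1, had 17.7 in Jam3-null LICs, against 44.6 in WT LICs, at least 1.61-fold lower (1.09-fold after normexp).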
